A study of Mus musculus with 6 samples.

Results

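The genes described here are called amino acid transporters and belong to the solute carrier families SLC1, SLC3, SLC6, SLC7, SLC36, SLC38 and SLC43. They include plasma membrane, lysosomal and vesicular carriers, and some carry other substrates, such as creatine. They were taken by symbol from the protein-coding genes of the deposited table, with Slc7a11 left out, which gave 54 of the 30315 genes listed. Symbols that end in a letter, as Slc6a20a and Slc6a20b, were not taken. RNA-Seq was performed on primary renal tubular epithelial cells (TECs) of C57BL/6 mice, a culture of cells taken from kidney tubules. Each group had 3 libraries: in the first group Sox9 was silenced by the small interfering RNA siSox9, and in the other the cells were transfected with siNC, the control siRNA. All 6 were subjected to hypoxia/reoxygenation (H/R), a culture model of ischemia, with transfection 12 h earlier, glucose-free hypoxia (1% oxygen) for 6 h and reoxygenation in complete medium for the following 18 h. No library without H/R belonged to this comparison, so every value below is a level after H/R.

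Amino acid transporters move amino acids across membranes by coupling them to sodium, to protons or to the exchange of another amino acid. In the kidney, carriers on the apical side of the proximal tubule recover filtered amino acids and carriers on the basolateral side release them to the blood. In growing and stressed cells a different set, with the sodium-coupled glutamine carriers and the heterodimeric exchangers at its center, supplies protein synthesis, and several of its genes are known targets of the transcription factor ATF4 in the amino acid response. Heterodimeric exchangers pair a heavy subunit of the SLC3 family with a light subunit of the SLC7 family.

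Values are FPKM, which are reads scaled to the exon length of a gene and to the depth of the library. Differences are log2 fold changes of siSox9 against siNC on log2(FPKM + 1), a scale that understates the change of genes near 1 FPKM. They were tested with limma over all 12009 genes whose mean reached 1 FPKM, and genes were called at a Benjamini-Hochberg adjusted p under 0.05. The labels do not say whether libraries of a group came from separate cultures, so the p-values measure the spread between these libraries, which may be technical. Depth was similar throughout, with recovered totals of 23893196 to 25725737 reads per library. Sox9 itself was at 8.93, 8.61 and 9.07 FPKM with siSox9 and 25.7, 26.5 and 25.6 FPKM with siNC, so 34.2% was left. Of the 8 epithelial markers, all were above 1 FPKM, with a summed level of 3895 to 4209 FPKM. In contrast, 6 of the 9 proximal tubule markers listed were under 0.1 FPKM on average, as were 5 of 7 for loop and distal tubule and 4 of 7 for collecting duct. Slc34a1, the phosphate carrier that defines the proximal tubule, was at most 0.00895 FPKM in any library. Lrp2, of the same list, was at 2.41 FPKM with siSox9 and 2.13 FPKM with siNC. The label of tubular epithelium was therefore matched by epithelial markers, while most markers of each tubule segment were at or near 0.

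The transporters fell into a small set of abundant genes and a long tail near 0. A mean of at least 1 FPKM was reached by 23 members, and 11 were at 10 FPKM or more. The other 31 were not tested: 9 lay between 0.1 and 1 FPKM and 22 were under 0.1 FPKM. Of all 54, 13 had at most 3 reads in every library. Slc38a2 was the most abundant member at a mean of 105.9 FPKM, which was 28.5% of the FPKM of all members and at the 98.0 percentile of protein-coding genes. It was followed by Slc3a2 at 43.1, Slc6a6 at 36.3, Slc7a1 at 26.3 and Slc38a1 at 23.7 FPKM, and these 5 genes held 63.2% of the members' FPKM. The ranges over the 6 libraries separated each of the first 3 from the next gene in the order. By contrast, Slc7a1 and Slc38a1 overlapped, as did neighbours in the run Slc7a5, Slc7a6, Slc38a10, Slc6a8 and Slc1a4, from 19.1 down to 15.2 FPKM, so the order within that run was not resolved.

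**Figure D1:**
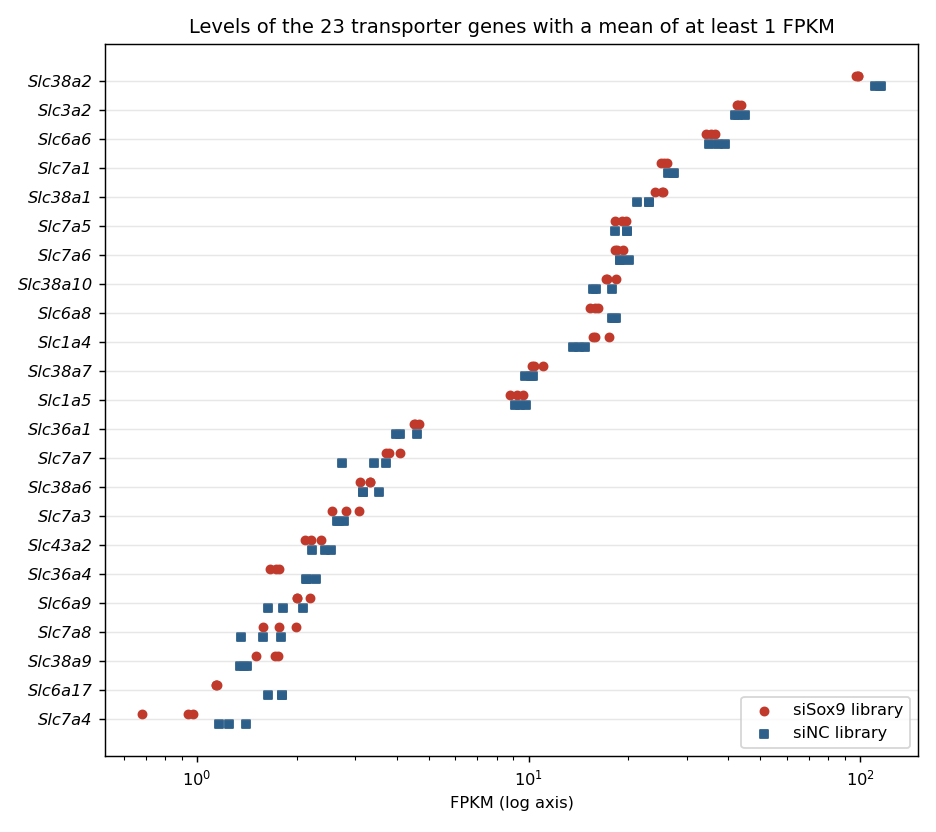
FPKM on a log axis for the 23 tested transporter genes, ordered by mean, with a circle for each siSox9 library and a square for each siNC library. Slc38a2 stands alone at 97.0 to 115.9 FPKM, and in most rows the circles and squares share a range.

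Sox9 knockdown left most of these genes within a narrow band. Of the 23 members tested, 7 were called, 2 higher and 5 lower with siSox9, beside 30.4% of all 12009 genes (12.8% higher and 17.6% lower). The share of members called, 30.4%, was therefore that of the table as a whole. Slc7a4, one of the 5 lower, passed the filter on the mean of all libraries only through siNC, as its siSox9 mean was under 1 FPKM. Its direction, though not its call, was therefore set by passing, which limits each count it enters. The log2 fold changes of the 23 members ran from -0.36 to 0.19, with a median of -0.01, and the median over all genes was also -0.01. In size, the median absolute log2 fold change was 0.09 for the members and 0.11 for all genes. Only Slc6a17 and, with that limit, Slc7a4 changed by 1.2-fold or more on this scale, which was 8.70% of the members tested, against 16.5% of all genes. Both were also called, as were 14.1% of all genes at this fold. Of the 16 members that were not called, 12 had a 95% interval that lay wholly within 1.2-fold in either direction on log2(FPKM + 1). For genes at a few FPKM this scale understates the change, so the interval in FPKM can be wider. The groups did not overlap for 10 of 23 members, 4 above and 6 below siNC, beside 46.3% of all genes (20.2% above and 26.1% below). The split by direction depended on scaling: with quantile-normalized values 3 members were higher and 3 lower, and with FPKM rescaled to a common sum (TPM) 0 were higher and 2 lower. Over all genes the calls were 1532 higher and 2118 lower, and with median-centred values 1959 higher and 1765 lower.

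**Figure D2:**
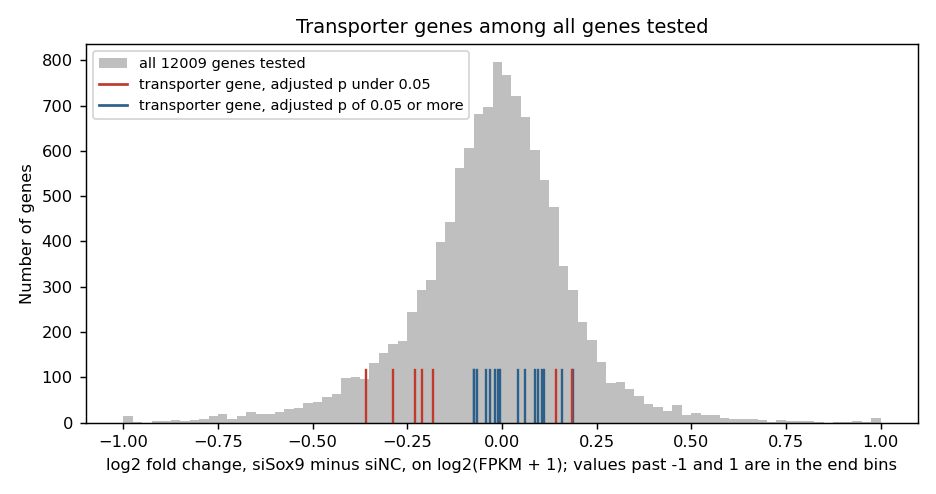
Number of genes by log2 fold change (siSox9 minus siNC) for all 12009 genes tested, with a line for each of the 23 transporter genes, red where the adjusted p was under 0.05. The transporters lie between -0.36 and 0.19, inside the bulk of the distribution.

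The sodium-coupled SLC38 family, which carries glutamine, alanine and other small neutral amino acids, held the most abundant member and the pair of neighbours that moved in opposite directions. Slc38a2 (ENSMUSG00000022462; chr15:96687394-96699698, - strand), the system A carrier that cells induce on amino acid shortage, was at 97.0, 98.6 and 98.7 FPKM with siSox9 and at 115.9, 110.5 and 114.8 FPKM with siNC. Every siSox9 library was below every siNC library. Slc38a2 fell by 0.21 on the log2 scale (SE 0.03, adjusted p = 0.00233), to 86.2% of siNC, and in bulk libraries fewer cells of a type and less RNA per cell cannot be told apart. The call held with each library left out in turn, with adjusted p from 0.0045 to 0.0145.

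Slc38a1 (ENSMUSG00000023169; chr15:96571418-96642913, - strand), a carrier of the same system, lies 44.5 kb from Slc38a2 on the same strand. Its levels were 25.5, 25.2 and 24.0 FPKM with siSox9 and 23.1, 21.3 and 23.1 FPKM with siNC, so the groups did not overlap, with siSox9 above. Slc38a1 rose by a log2 fold change of 0.14 (SE 0.04, adjusted p = 0.0427). This call was close to the threshold and was lost without siSox9 replicate 1, siSox9 replicate 2, siNC replicate 2 or siNC replicate 3, where the highest adjusted p was 0.128. It was also lost with no filter on low values, with TPM and without the variance trend. Within a library the ratio of Slc38a2 to Slc38a1, which does not depend on scaling between libraries, was 3.81, 3.92 and 4.11 with siSox9 and 5.03, 5.20 and 4.97 with siNC. This ratio was chosen after the values were seen, and its exact two-sided permutation p of 0.1 is the smallest that 3 libraries against 3 allow.

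The remaining SLC38 genes showed no called difference. Slc38a9, the lysosomal arginine sensor and carrier that acts on mTORC1, was at 1.75, 1.72 and 1.51 FPKM with siSox9 and 1.42, 1.38 and 1.34 FPKM with siNC, and the groups did not overlap. Its log2 fold change of 0.16 (SE 0.06) had an adjusted p of 0.104 in limma. On whole reads recovered from the FPKM values, limma voom gave 0.28 with an adjusted p of 0.00458, where 35.4% of all genes were called. Slc38a9 was also called with quantile-normalized values and without the variance trend, and not with a pseudocount of 0.1, no filter, TPM or median-centred values, so its call depended on the processing. Slc38a10 (17.6 and 16.5 FPKM with siSox9 and siNC), the lysosomal glutamine carrier Slc38a7 (10.5 and 10.1 FPKM) and Slc38a6 (3.25 and 3.29 FPKM) overlapped between the groups. For Slc38a6, 31.3% of its 31-base words also occur in transcripts of other genes, so its reads were less certain than those of its family. The next highest share in the family was 6.59%, for the called Slc38a1. Slc38a4, the third gene of the chromosome 15 cluster, was at 0.243 and 0.281 FPKM and was not tested.

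With Slc7a11 left out of the members, the heterodimeric exchangers gave no called gene. Slc3a2 (ENSMUSG00000010095; chr19:8706882-8723369, - strand), the heavy subunit shared by most of them, was at 43.8, 42.8 and 42.4 FPKM with siSox9 and 44.9, 41.8 and 42.7 FPKM with siNC. The groups overlapped fully, and the 95% interval of the log2 fold change ran from -0.09 to 0.08 (adjusted p = 0.94). Its main light subunits were equally close: Slc7a5, the system L carrier of leucine and other large neutral amino acids, was at 19.0 ± 0.756 and 19.3 ± 0.944 FPKM (SD, n = 3), and Slc7a6, which exchanges cationic for neutral amino acids, was at 18.6 ± 0.555 and 19.2 ± 0.709 FPKM. The ratio of Slc3a2 to the sum of Slc7a5, Slc7a6, Slc7a7 and Slc7a8 was 0.994 ± 0.0139 with siSox9 and 0.996 ± 0.0196 with siNC.

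Both basolateral light subunits of the kidney were low. Slc7a7 was at 3.72, 4.09 and 3.79 FPKM with siSox9 and 3.72, 2.74 and 3.41 FPKM with siNC. The lowest siSox9 library and the highest siNC library were both at 3.72 FPKM, so the groups only just did not overlap. Its log2 fold change of 0.19 (SE 0.09), the highest estimate among the 23 tested members, had an adjusted p of 0.148. Of the exon bases of Slc7a7, 7.0% overlap Oxa1l on the opposite strand, which was at 13.1 FPKM with siSox9 and 12.6 FPKM with siNC. Slc7a8 was at 1.78 and 1.57 FPKM and the groups overlapped.

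Among the cationic carriers, Slc7a1, the general importer of arginine and lysine, was at 26.2, 25.6 and 25.0 FPKM with siSox9 and 27.4, 26.3 and 27.3 FPKM with siNC. The siSox9 libraries were all lower, but the log2 fold change of -0.07 (SE 0.03) was not called (adjusted p = 0.131). Slc7a3 was at 2.81 and 2.70 FPKM, with overlapping groups. Slc7a4 (ENSMUSG00000022756; chr16:17572018-17576998, - strand), a relative of these carriers whose substrate is not settled, was at 0.938, 0.970 and 0.684 FPKM with siSox9 and 1.41, 1.25 and 1.16 FPKM with siNC. It was lower in all 3 siSox9 libraries and fell by 0.29 on the log2 scale (SE 0.09, adjusted p = 0.0469). With siSox9 its mean was under the filter of 1 FPKM. The call was lost with any single library left out (adjusted p from 0.0695 to 0.117), and also with a pseudocount of 0.1, no filter, TPM, median-centred or quantile-normalized values. In addition, 13.3% of its exon bases overlap P2rx6 on the opposite strand, a gene at about 0.1 FPKM.

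The SLC1 family gave the other rise. Slc1a4 (ENSMUSG00000020142; chr11:20302180-20332713, - strand), an exchanger of alanine, serine and cysteine, was at 15.9, 17.4 and 15.6 FPKM with siSox9 and 14.8, 13.6 and 14.2 FPKM with siNC. All 3 siSox9 libraries were above siNC. Slc1a4 rose by a log2 fold change of 0.19 (SE 0.05, adjusted p = 0.033), and limma voom on recovered reads gave 0.21 (adjusted p = 0.00508). Its call was lost without siSox9 replicate 1, siSox9 replicate 2, siNC replicate 2 or siNC replicate 3 (adjusted p up to 0.0951), with TPM and with no filter. Its relative Slc1a5, a glutamine exchanger, was at 9.23, 9.64 and 8.78 FPKM against 9.83, 9.43 and 9.06 FPKM, overlapping, with a log2 fold change of -0.03 (SE 0.05). The other SLC1 genes, which encode glutamate carriers, were all under 0.1 FPKM.

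Of the members with a promoter sequence, Slc1a4 and Slc7a7 were the only ones to hold the core of the C/EBP-ATF response element, the sequence that ATF4 binds in genes of the amino acid response. Members without a promoter sequence were not searched, among them the called genes Slc38a1, Slc6a8 and Slc7a4 and the abundant Slc6a6 and Slc7a5. The letters TGATGCAA were searched on both strands in the 300 bases around each RefSeq start (GRCm38.p6), which were given for 39 of the 54 members in 60 promoters. They occurred at 1 site in each of 2 member genes (5.13% of the 39) and in 1.03% of all 27025 genes with a promoter. The site of Slc7a7 lay in the overlapping windows of 2 starts, so by promoter it counts in 3 of 60 (5.00%), against 0.895% of 32851. The SOX core ACAATGG, searched likewise, occurred in 0 of the 60 member promoters and in 3.66% of all. The stretches below are shown because they carry these matches. They run 5′ to 3′ on the - strand at chr11:20332710-20332773 for Slc1a4 and at chr14:54417938-54418004 for Slc7a7, with the match in capitals. In Slc1a4 the match starts 4 bases before the RefSeq start, and the Slc1a4 stretch shows it as the reverse complement TTGCATCA.
Slc1a4: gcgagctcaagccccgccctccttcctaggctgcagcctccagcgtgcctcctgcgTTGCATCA
Slc7a7: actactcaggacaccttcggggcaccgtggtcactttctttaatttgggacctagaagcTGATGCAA
A match describes letters in these windows and is no evidence of binding. Slc1a4 was called higher and Slc7a7 was not called.

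The SLC6 family, with carriers of neurotransmitters, taurine, creatine and glycine, had only falls among its calls. Slc6a8 (ENSMUSG00000019558; chrX:73673150-73682502, + strand), the creatine carrier, was at 16.1, 15.9 and 15.3 FPKM with siSox9 and 18.3, 17.8 and 18.1 FPKM with siNC. The groups were well apart, and Slc6a8 fell by 0.18 on the log2 scale (SE 0.03, adjusted p = 0.00591). It stayed called with each library left out (adjusted p from 0.0143 to 0.0255) but not with TPM. Slc6a17 (ENSMUSG00000027894; chr3:107467543-107518018, - strand), a vesicular carrier of neutral amino acids known from neurons, showed the largest change of the tested members. It was at 1.14, 1.14 and 1.15 FPKM with siSox9 and 1.80, 1.81 and 1.64 FPKM with siNC, which recovered as 302, 297 and 282 reads against 459, 449 and 419 reads. Slc6a17 fell by 0.36 on the log2 scale (SE 0.06, adjusted p = 0.00483), to 65.3% of siNC, and the call held in the 6 fits that each left out a library. Limma voom on the reads, without the pseudocount of 1 FPKM, gave -0.60 (adjusted p = 2.24e-05).

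Slc6a6, the taurine carrier and the third most abundant member, was at 35.4, 36.6 and 34.2 FPKM with siSox9 and 39.2, 35.1 and 37.2 FPKM with siNC. The groups overlapped, and its log2 fold change of -0.07 (SE 0.05) was not called (adjusted p = 0.317). The glycine carrier Slc6a9 was at 2.06 and 1.84 FPKM, overlapping, and 30.3% of its exon bases overlap B4galt2 and Ccdc24 on the opposite strand.

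**Figure D3:**
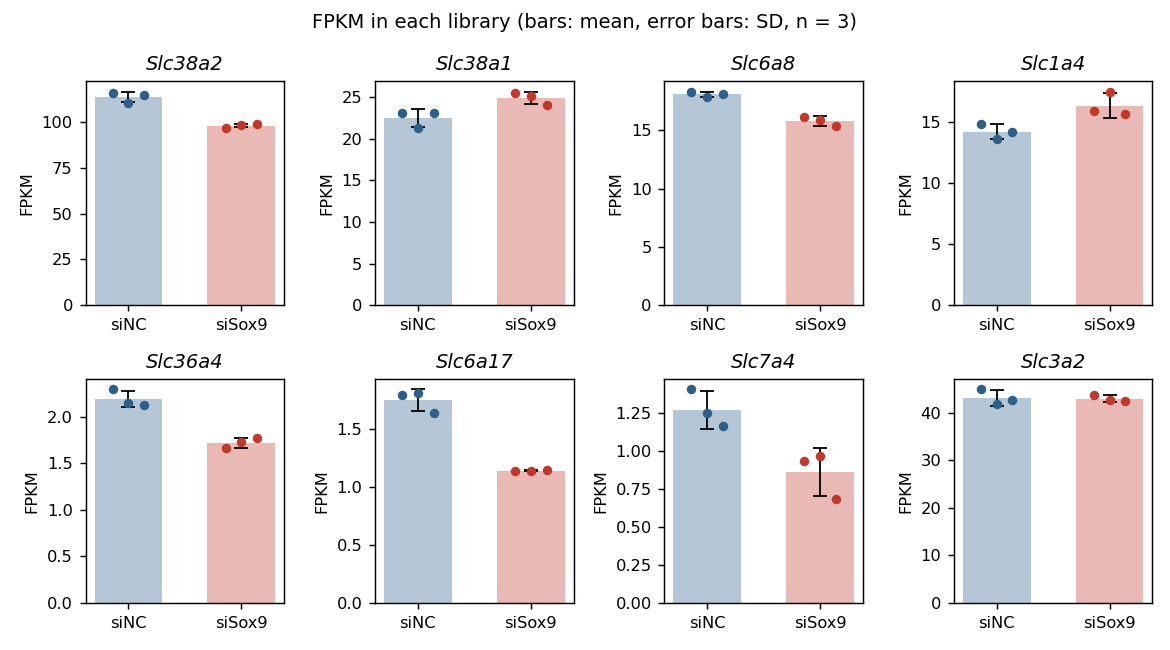
FPKM in each library (points) with the mean (bars) and SD (error bars, n = 3) for the 7 called members and for Slc3a2, on axes that start at 0. In the 7 called genes the points of siSox9 and siNC do not overlap, and in Slc3a2 they do.

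The SLC36 carriers differed from each other. Slc36a4 (ENSMUSG00000043885; chr9:15709738-15743361, + strand), a carrier of proline and tryptophan, was at 1.66, 1.73 and 1.77 FPKM with siSox9 and 2.29, 2.15 and 2.13 FPKM with siNC. It was lower in all 3 siSox9 libraries and fell by 0.23 on the log2 scale (SE 0.05, adjusted p = 0.0177), with the call lost without siSox9 replicate 1, siSox9 replicate 2 or siNC replicate 1 (adjusted p up to 0.0589), with TPM, with quantile-normalized values and with no filter. Slc36a1, found on lysosomes and at the cell surface, was at 4.57 and 4.23 FPKM with overlapping groups and was not called. The ratio of Slc36a4 to Slc36a1, chosen after the values were seen, was 0.376 ± 0.018 with siSox9 and 0.519 ± 0.0207 with siNC (exact two-sided permutation p = 0.1). Of the facilitated SLC43 carriers, Slc43a2 was at 2.23 and 2.40 FPKM and was not called.

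**Figure D4:**
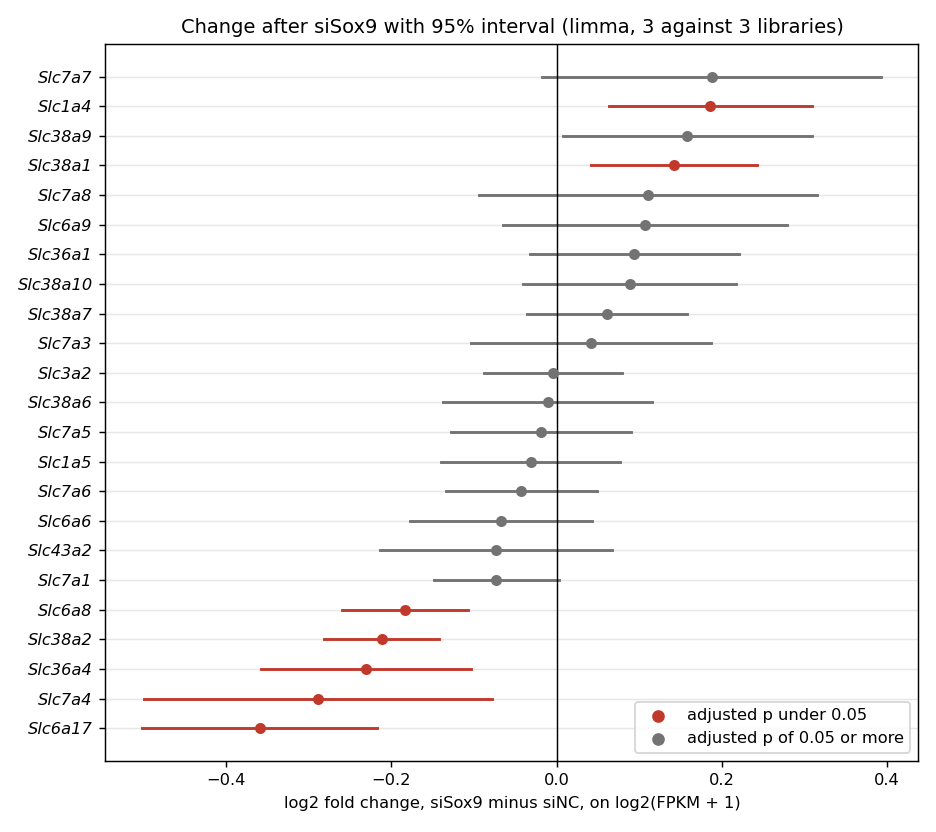
Log2 fold change on log2(FPKM + 1) with its 95% interval for the 23 tested members, red where the adjusted p was under 0.05. The intervals of 5 called genes lie below 0 and those of Slc1a4 and Slc38a1 above it, while Slc3a2 is centered on 0.

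The apical carriers of amino acid recovery named next were all under 1 FPKM, whereas the basolateral light subunits Slc7a7 and Slc7a8 were above it. Slc7a9, the light subunit for cystine, had at most 1 read in any library. Its heavy subunit Slc3a1 was at 0.691, 0.478 and 0.581 FPKM with siSox9 and 0.227, 0.485 and 0.384 FPKM with siNC. These ranges overlapped, and 26.5% of the exon bases of Slc3a1 overlap Prepl on the opposite strand, which was at 16.4 and 21.7 FPKM, so its reads cannot be assigned with certainty. Slc6a19, the main apical carrier of neutral amino acids, had 18, 22 and 15 reads after siSox9, against 31, 35 and 27 in the controls. The reads did not overlap, but with no filter on low values the adjusted p was 0.0853, and at this depth no difference was called. Slc6a18, Slc38a3 and Slc1a1, other carriers of the renal tubule, were all under 0.1 FPKM. Of the 31 untested members, 5 had groups that did not overlap in FPKM, beside 11.7% of the 16113 untested genes with a read in any library: Slc6a12, Slc6a14, Slc38a4, Slc6a19 and Slc1a1. In reads, the highest siSox9 and the lowest siNC library tied for Slc6a12 (58), and after rounding for Slc38a4 (27) and Slc1a1 (4). Slc1a1 also shares 31.9% of its exon bases with 4430402I18Rik on the opposite strand. Without the filter limma called 0 of the 31 (9.6% of all genes), with 2 at an unadjusted p under 0.05, and limma voom called 0 of the 28 with whole reads (13.6% of all genes), again with 2.

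Summed over all 54 members, the transporter FPKM was 367.7, 366.2 and 358.2 with siSox9 and 393.1, 367.4 and 380.1 with siNC. The ratio of the means was 0.957, and the sums overlapped (exact two-sided permutation p = 0.2). The SLC38 sum was 156.3 ± 0.952 FPKM with siSox9 and 167.8 ± 5.06 FPKM with siNC, without overlap (exact p = 0.1, the smallest possible), but with TPM the p was 0.3. Slc38a2, which enters both this sum and that of all members, averaged 98.08 FPKM with siSox9 and 113.75 FPKM with siNC. Of the 6 SLC38 genes tested, 4 had a log2 fold change above 0 and 2 below, so the lower sum was not a fall of the whole family. The sums of the cationic SLC7 carriers (ratio 0.945), the SLC43 carriers (0.894) and the SLC6 carriers of osmolytes and neurotransmitters (0.925) were likewise lower without overlap, each with an exact p of 0.1, which with TPM became 0.6, 0.3 and 0.5. The SLC1 sum had a ratio of 1.08 and the SLC36 sum 0.98, both with overlap. Light and heavy subunit sums had ratios of 0.999 and 1.00.

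**Figure D5:**
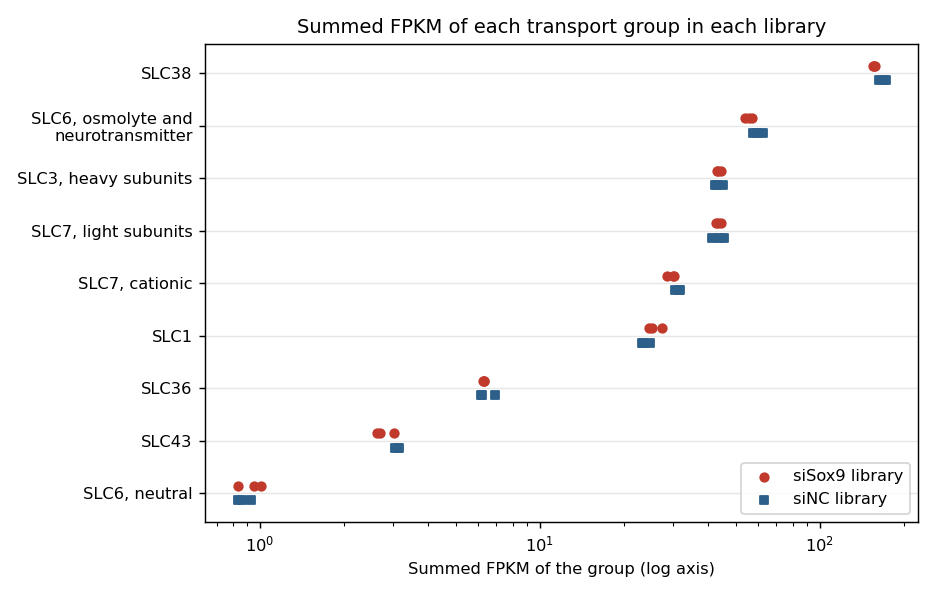
Summed FPKM on a log axis for the genes of each transport group, with a circle for each siSox9 library and a square for each siNC library. The SLC38 group is the largest, at 155.3 to 172.5 FPKM, and the heavy and light subunit groups share their range between siSox9 and siNC.

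Genes that respond to or sense amino acids were described beside the carriers. Of 28 genes of the amino acid response listed, 25 were tested and 8 were called, 5 higher and 3 lower, with a median log2 fold change of 0.01. This was 32.0% of the list, close to the 30.4% of all genes, where the median was -0.01. The stress regulator Nupr1 (log2 fold change 0.57), the serine synthesis enzyme Phgdh (0.28), the leucine sensor Sesn2 (0.25) and the cysteine-forming enzyme Cth (0.23) were the largest rises. Shmt2 (-0.74), which transfers one-carbon units in mitochondria, Psat1 (-0.41), which acts next to Phgdh in serine synthesis, and Got1 (-0.10) were lower. Atf4, the transcription factor of this response, was at 159.1 and 157.5 FPKM, and its target Asns was at 74.4 and 74.5 FPKM. Neither Atf4 nor Asns was called. With 5 calls higher, 3 lower and a median of 0.01, the list did not move in a single direction.

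Of 38 genes of mTORC1 amino acid sensing listed, 37 were tested and 12 were called, 6 in each direction, with a median of -0.01. That share, 32.4%, was again close to the 30.4% of all genes. The Ragulator subunit Lamtor1 (0.49) and the GTPase Rragd (0.34) led the rises, with the arginine sensor Gatsl3 (0.31) and Sesn2 (0.25). The GATOR2 subunit Seh1l (-0.80) fell most, followed by Gatsl2 (-0.36), a relative of Gatsl3, and the sestrins Sesn3 (-0.34) and Sesn1 (-0.23). Among 16 other carriers and partner genes, 8 were tested and 1 was called (12.5%, beside 30.4% of all genes; median log2 fold change 0.08), the lysosomal peptide and histidine carrier Slc15a4 (0.16).

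Markers of other cells moved with the groups in part. The summed level of 5 podocyte markers was 12.5 to 13.9 FPKM with siSox9 and 18.8 to 19.5 FPKM with siNC. Nphs1 was listed at 0 in all 6 libraries, and both markers above 1 FPKM, Podxl and Synpo, were lower. The loop and distal tubule list summed to 6.33 to 7.15 FPKM against 8.75 to 10.1 FPKM, and 1 of its 2 tested genes, Cldn16, was lower. The fibroblast and pericyte list, 2 of 8 at 1 FPKM or more, summed to 9.05 to 11.0 FPKM with siSox9 and 11.3 to 12.3 FPKM with siNC, and the endothelial list, 1 of 7 at that level, to 4.27 to 4.62 and 4.71 to 6.07 FPKM. Both were lower with siSox9 without overlap, and neither had a called gene. Collecting duct markers overlapped, at 14.7 to 16.2 and 15.6 to 16.5 FPKM. Macrophage and leukocyte markers, 5 of 9 at 1 FPKM or more, summed to 42.0 to 47.0 and 42.6 to 45.6 FPKM, without a called gene. Cdh16, a kidney cadherin, was higher with siSox9 at 129.7 against 100.9 FPKM. It was the only called gene of the 8 epithelial markers, of which 3 had a log2 fold change above 0 and 5 below. Mki67, a marker of cycling cells, was lower with siSox9 at 6.90 against 12.5 FPKM. Whether these differences had a part in the transporter changes was not tested.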

How the data were processed

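For every gene and library the authors deposited an FPKM value, and per the labels the notes of the submitters name Bowtie2 2.2.3, HISAT2 2.1.0, TopHat2 and mm9 without saying what each was used for; the counting tool and the annotation are not given in the sources used here. Positions in the table are those of GENCODE M21 (GRCm38) for 93.3% of the 30246 genes found there, and for 49 of the 54 members, so coordinates are given in GRCm38. Columns were matched to samples by siRNA and number. Those of siSox9 were assigned as the only siRNA columns other than the control's. No column of sample values was left out (0).

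The test was limma 3.58.1 (lmFit, eBayes with a trend; R 4.3.3) on log2(FPKM + 1), a pseudocount of 1, for genes reaching a mean of 1 FPKM, without a replicate block. Whole reads were recovered with M21 exon lengths; 93.3% of values were whole within 0.02 reads, and 1 read on 1 kb was worth 0.0389 to 0.0419 FPKM. The script was tested on simulated data with known changes before use. It called 97 of 100 genes changed by a log2 of 1, 83 of 100 changed by 0.5 and 16 of 10265 unchanged genes. Changes under 0.5, the range of most called members, were not simulated. Exact permutation tests and ratios used scipy 1.17.1, with Python 3.11.15, numpy 2.4.6, pandas 2.3.3 and matplotlib 3.10.9. Promoters came from RefSeq.

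The members and gene lists were chosen with earlier results of these data known. Values in every library are given for called members whose groups did not overlap, for the 5 most abundant members, for Slc3a1 and Slc3a2 and for Sox9. Slc38a9, Slc7a7, Slc1a5 and Slc6a19 were added after their values were seen. From each other list, up to 4 rises and 4 falls are named. Alternatives were the replicate block, a pseudocount of 0.1, quantile normalization, median centring, TPM, filters of 5 FPKM or none, no trend, a minimum of 1.2-fold and leaving out each library. Limma voom on recovered reads was added after the data were seen.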

Additional observations from a re-analysis of the deposited data

How the results depend on the processing

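The count of transporter genes called (7, with 2 higher and 5 lower) was 3 with no filter (0 higher, 3 lower), 4 with a minimum of 5 FPKM (2 lower), 2 with TPM (0 higher, 2 lower) and 2 with a minimum of 1.2-fold (0 higher, 2 lower). Quantile-normalized values gave 3 lower. Limma voom on recovered reads, with and without the filter, also gave 3 lower, which were Slc36a4, Slc6a17 and Slc6a8. Slc38a2, Slc7a4 and Slc38a1 did not recover as whole reads and were not in the voom fits, so voom could not keep or lose their calls. Leaving out 1 library in turn gave 3 to 6 called, 0 to 3 higher and 3 to 4 lower. Slc38a2 and Slc6a17 were called in every alternative that tested them, apart from the minimum of 1.2-fold, which Slc38a2 missed. The replicate block gave 3 transporter genes, 0 higher and 3 lower, with Slc36a4, Slc7a4, Slc38a1 and Slc1a4 no longer called (adjusted p from 0.0507 to 0.067). Same-numbered libraries did not deviate together (correlations 0.0649, -0.0504 and 0.00784), so the numbers were not taken as a pairing.

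The minimum of 1.2-fold left 4 amino acid response genes, 6 mTORC1 sensing genes, 0 other carriers and 1691 of all genes (553 higher, 1138 lower). Other carriers called were 0 with no filter, a minimum of 5 FPKM or TPM, and 2 with median-centred, quantile-normalized or voom values, and 0 to 2 with a library left out. Leaving out 1 library gave 6 to 7 amino acid response genes and 8 to 11 sensing genes. Lower calls over all genes were 1376 with a minimum of 5 FPKM and 1342 with TPM. With a library left out, all calls ran from 2424 to 3654, 944 to 1565 higher and 1480 to 2089 lower; the lowest was without siSox9 replicate 2.

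The log2 fold change of Slc3a2, near 0 and not called, turned positive with TPM (0.0244), median-centred values (0.0223) and voom with and without the filter (0.0110 in each), and ran from -0.0263 to 0.0247 with a library left out. The cause of these shifts was not tested. Depth limited the 31 members under 1 FPKM, of which 13 had at most 3 reads per library; recovered reads cover counting error only.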
